A study of Mus musculus domesticus and Mus musculus domesticus x Mus musculus castaneus and Mus musculus castaneus with 10 samples.

Results

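Heat shock chaperones are proteins that bind unfolded or newly made polypeptides and help them fold, and several of their genes are switched on strongly when proteins misfold. Under heat or other protein stress the transcription factor HSF1 is released from chaperones, forms trimers and activates the inducible genes, among them Hspa1a, Hspa1b, Hsph1, Dnajb1, Hspb1 and Hsp90aa1. Other chaperones, such as Hspa8 and Hsp90ab1 in the cytosol and Hspa5 in the endoplasmic reticulum, are made at high levels in unstressed cells. Pluripotent stem cells are known for abundant HSP90 and HSC70.

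The set held 10 genes by symbol, 6 called inducible here, 3 called constitutive and the regulator Hsf1, out of 26808 genes listed. The symbols were chosen from a known family, and the set was chosen from results of the 2 libraries described here, in which the difference in Hspa1b counts was already known. All values of the members are therefore a description. Of the 10 genes, 8 had a row of counts, and all 8 had at least 10 counts in the libraries together. Hspa1a and Hspa8 had no row and were not analysed here.

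RNA was sequenced from CAST stem cells, which are pluripotent cells of the mouse strain CAST/EiJ, with 2 libraries. They were induced pluripotent stem cells, reprogrammed from embryonic fibroblasts with retroviral Oct4, Sox2 and Klf4, cultured on irradiated fibroblasts and depleted of these feeders before RNA extraction. The series also holds 4 libraries of 129S6/SvEv embryonic stem cells and 4 of the hybrid stem cells labelled 129CAS, which were not analysed here. No treatment is named for the CAST cells, and the study's methods speak of cultures in the plural without saying that each replicate was a culture of its own. The batch entry in the labels differs between the CAST libraries, and its effect cannot be told apart from the replicate.

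Replicate 1 held 14460393 counts in all and replicate 2 held 13728098. Levels are given as CPM, the counts of a gene for every 1000000 in its library. A floor of 3 counts, used here for genes with few or no counts, equals 0.208 CPM in replicate 1 and 0.219 in replicate 2. Intervals are 95% intervals that cover counting error only (exact Poisson for levels, exact Clopper-Pearson for shares and exact conditional binomial for folds). With 2 libraries of 1 group there was no test. The libraries differ from each other in many genes, so a fold between them describes these libraries and not a condition.

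Markers of pluripotent cells were abundant in both libraries. Of 12 markers, 10 had a row of counts, with a summed level of 5202 CPM in replicate 1 and 4213 CPM in replicate 2, and Utf1 had the highest mean, with 832 and 804 CPM, below Esrrb (903 CPM) in replicate 1. Pou5f1 (Oct4) had 547 and 731 CPM and was among the 3 of 10 markers higher in replicate 2. Counts from retroviral Oct4, Sox2 and Klf4 were not separated from those of the cells' own genes. Markers of neurons summed to 223 and 174 CPM, most of it Stmn2 at 124 and 117 CPM, and the neuronal genes Chat and Syt1 had 0 counts in both libraries. Genes on the list for fibroblast feeders were present at very uneven levels. Their summed level was 6786 CPM in replicate 1 and 4192 CPM in replicate 2, over 17 genes. Fn1 led with 2401 and 2002 CPM, followed by Col1a1 with 1726 and 777 CPM. Other genes of the list were low, with Dcn at 3.25 and 3.205 CPM and Lum at 2.075 and 1.311. Pdgfra had 3.181 and 2.55 CPM, Pdgfrb 6.155 and 6.629, and Twist2 did not pass 3 counts in either library. Which cells the counts of this list came from was not tested.

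Hspa1b, the stress-induced HSP70 of the cytosol, was low in replicate 1 and well expressed in replicate 2. It had 108 counts in replicate 1, or 7.47 CPM (interval 6.13 to 9.02), and 3070 counts in replicate 2, or 224 CPM (216 to 232). It was 31.2-fold higher in replicate 2 (interval 25.7 to 38.1), and its mean of 116 ± 153 CPM (SD, n = 2) describes neither library. By count the gene ranked 9293 in replicate 1 and 953 in replicate 2. Among 9926 genes that averaged 5 CPM or more, no other had so large a ratio in favour of replicate 2.

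No other measured member came near this difference. Ratios between the libraries are given as log2 of replicate 2 over replicate 1, after edgeR TMM scaling and with 0.5 CPM added, over 13824 genes whose counts summed to 10 or more, and a positive value is higher in replicate 2. At least 2-fold higher in replicate 2 were 1 of the 8 members, Hspa1b at a log2 ratio of 4.87, and 4.13% of all genes tested. At least 2-fold higher in replicate 1 were 0 of the 8 members and 4.98% of all genes. With Hspa1b left out, an alternative chosen after seeing the data, 0 of 7 members were 2-fold apart in either direction.

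**Figure D1:**
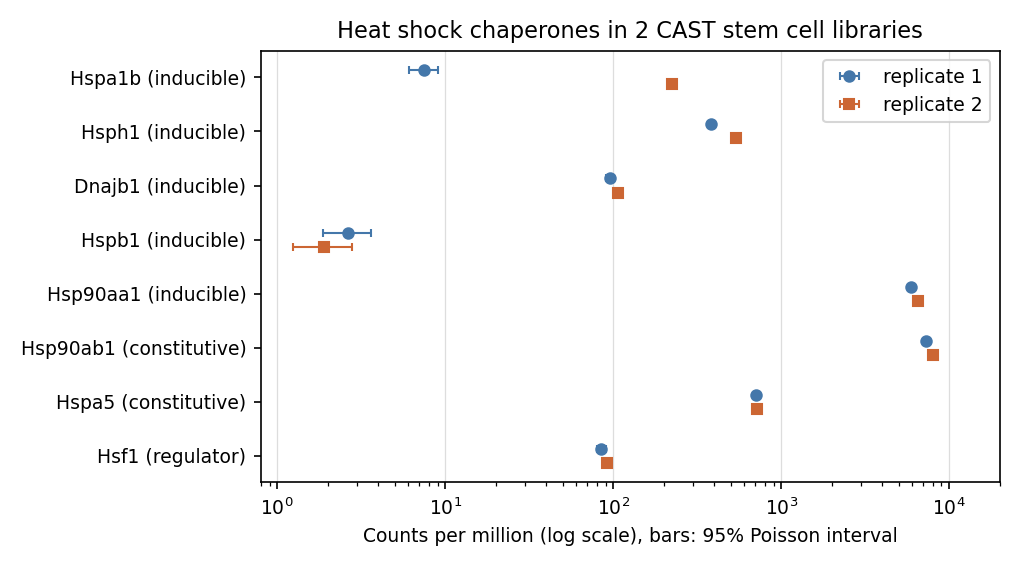
CPM of the 8 measured genes of the heat shock chaperone set in each of the 2 CAST stem cell libraries, on a log scale, with circles for replicate 1, squares for replicate 2 and bars for the 95% Poisson interval. Hspa1b lies at 7.47 CPM in replicate 1 and 224 CPM in replicate 2, whereas the symbols of each other gene lie close together.

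Among the inducible members, Hsph1 had the next largest difference. Hsph1 encodes an HSP110 protein that exchanges the nucleotide of HSP70. It had 5488 counts (380 CPM) in replicate 1 and 7391 counts (538 CPM) in replicate 2, a 1.48-fold difference (interval 1.43 to 1.53) and a log2 ratio of 0.56. This lay just above the 95th percentile of 0.54 for the 2497 genes with a mean of 100 to 1000 CPM, and ranked 769 among the same 9926 genes. The difference was larger than counting error, and its position among genes of like level was near the edge of the spread between the libraries.

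Dnajb1, the HSP40 partner that brings substrates to HSP70 and a classical HSF1 target, hardly differed. It had 1388 counts (96.0 CPM) in replicate 1 and 1476 counts (108 CPM) in replicate 2, a log2 ratio of 0.22 and a fold of 1.17 (interval 1.08 to 1.26). Its ratio lay within the middle part of the spread of genes at 100 to 1000 CPM, whose 25th and 75th percentiles were -0.16 and 0.25.

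Hspb1, the small heat shock protein HSP27 (HSP25 in mouse), had the fewest counts of the members in both libraries and pointed the other way. It had 38 counts (2.63 CPM) in replicate 1 and 26 counts (1.89 CPM) in replicate 2. The fold of 0.751 had an interval of 0.438 to 1.27, which includes no difference, so none was detectable at this depth.

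Hsp90aa1, the inducible cytosolic HSP90, had the second highest count of all genes in either library. It had 85526 counts (5915 CPM) in replicate 1 and 89714 counts (6535 CPM) in replicate 2, a 1.15-fold difference (interval 1.14 to 1.16). Although classed as inducible, the gene was thus abundant in both libraries.

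The constitutive members were high and close between the libraries. Hsp90ab1, the constitutive cytosolic HSP90, had the highest count of all genes in both libraries, 105010 (7262 CPM) in replicate 1 and 109966 (8010 CPM) in replicate 2. Its log2 ratio of 0.20 equalled that of Hsp90aa1, and 0.20 was also the median of the 77 genes that averaged 1000 CPM or more. These 77 include both HSP90 genes, and their median has the same value as Hsp90aa1 (0.2027), so it is not an independent reference. Hspa5, which encodes the endoplasmic reticulum HSP70 called BiP, had 711 and 720 CPM, a log2 ratio of 0.08 (0.02 with library totals). The regulator Hsf1 had 1231 counts (85.1 CPM) in replicate 1 and 1266 counts (92.2 CPM) in replicate 2, a log2 ratio of 0.17. The mRNA level of Hsf1 does not measure its activity, which is set on the protein.

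By role, the 5 inducible members had a median log2 ratio of 0.22 and a range of -0.34 to 4.87, and the 2 constitutive members a median of 0.14 (0.08 with library totals). With a mean of at least 5 CPM, which removes Hspb1, the inducible median was 0.39. The median of all genes tested was -0.0047. Without Hspa1b the inducible median was 0.21, and a median of so few genes hardly depends on its highest value. Of the 8 members, 7 had a higher scaled value in replicate 2, as had 6858 of the 13824 genes. The ratios of all 8 kept their sign under every scaling and pseudocount tried.

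Together the 8 genes took 1.45% of all counts in replicate 1 (interval 1.44 to 1.45) and 1.62% in replicate 2 (1.62 to 1.63), a mean of 1.53% ± 0.125 (SD, n = 2). Hsp90aa1 and Hsp90ab1 alone made up 1.318% and 1.455%. In CPM, replicate 2 exceeded replicate 1 by 748 for Hsp90ab1, 621 for Hsp90aa1, 216 for Hspa1b and 159 for Hsph1. A small ratio in a very abundant gene thus changed the total more than the large ratio of Hspa1b.

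Levels can be compared between genes only per length, here as the mean CPM per kilobase of the longest protein-coding transcript. Hsp90ab1 was highest at 3030, followed by Hsp90aa1 at 1897, Hspa5 at 195 and Hsph1 at 121. Hsf1 at 42.2, Hspa1b at 41.2 and Dnajb1 at 34.0 came next, and Hspb1 was lowest at 2.43. The values of neighbours in this order did not overlap between libraries except where Hspa1b was one of them, since Hspa1b had 2.67 in replicate 1 and 79.8 in replicate 2, a range that takes in Hsf1 and Dnajb1 and reaches Hspb1. In replicate 1 it stood beside Hspb1 (2.83), and in replicate 2 it stood between Hsph1 (142) and Hsf1 (43.8). With the length of all exons merged, chosen after seeing the data, Hsf1 fell to 12.5 and lay below Dnajb1 at 31.8, and Hsph1 fell to 74.1 in replicate 2 and lay below Hspa1b at 79.8. These places in the order therefore depend on the length used. The lengths also include sequence shared with other genes, described below, and were not corrected for it. The places of Hspa1b, Hsp90aa1 and Hspb1 are uncertain to that extent.

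**Figure D2:**
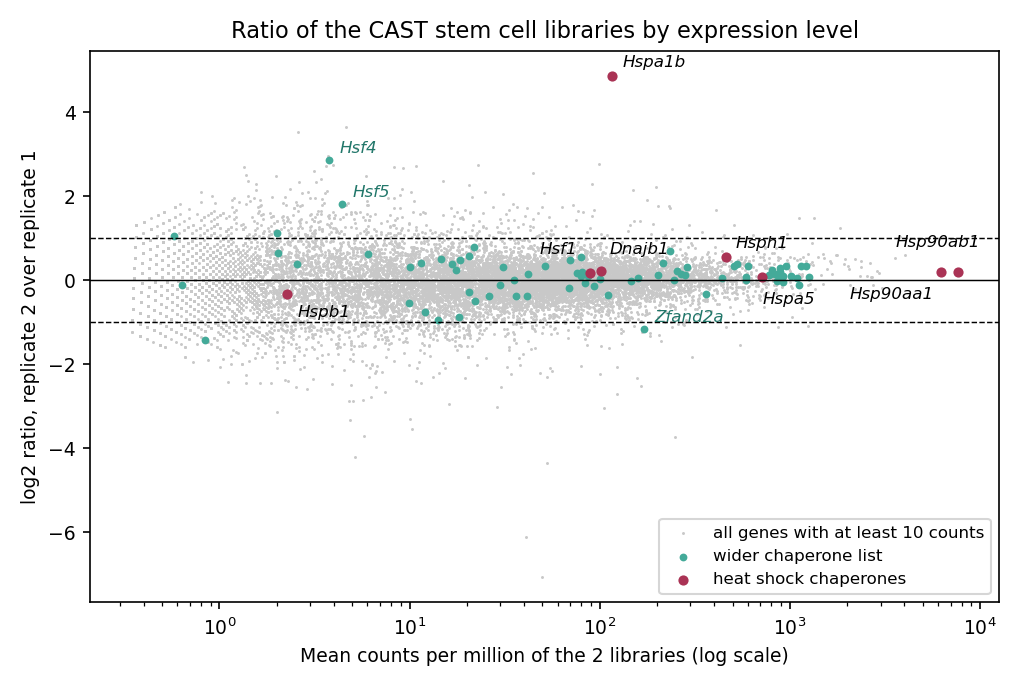
Log2 ratio of replicate 2 over replicate 1 against the mean CPM (log scale) for the 13824 genes tested (grey), the wider chaperone list (green) and the 8 heat shock chaperone genes (red), with dashed lines at 2-fold. Hspa1b stands alone at 4.87, the other members lie between -0.34 and 0.56, and Zfand2a lies below the lower line.

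A wider list of 87 chaperone, co-chaperone and stress genes was examined for the same pattern. Of the 77 that reached 10 counts, 55 were higher in replicate 2 and 22 in replicate 1, with a median log2 ratio of 0.13 (0.08 with library totals). Of all 13824 genes, 6858 were higher in replicate 2. The median of all genes rose with level, from -0.075 at 1 to 10 CPM to 0.20 at 1000 CPM or more. The directions and medians of the lists were not matched for level. At least 2-fold apart were 4 genes higher in replicate 2, beside 4.13% of all genes, and 2 higher in replicate 1, beside 4.98% of all genes. With so few genes, nothing about the network is read from these counts. Among them Hsf4, Hspa12b and Dnajb3 reached 10 counts only through the library in which they were high, so their ratios are partly set by the minimum. With a pseudocount of 2 CPM, Hsf4, Hsf5 and Zfand2a were still 2-fold apart and the low genes Hspa12b, Hspb2 and Dnajb3 were not, and with library totals Dnajb9 also was, at -1.01.

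Chaperonins, the ring-shaped folding machines of the cytosol (Cct genes and Tcp1) and of mitochondria (Hspd1 and Hspe1, which overlap on opposite strands), made up a list of 10 genes. Of these, 9 were higher in replicate 2, with a median of 0.17 (0.11 with library totals) and a range of -0.03 to 0.40. Genes with a mean of 100 to 1000 CPM had a median of 0.05 and a 75th percentile of 0.25. Those at 1000 CPM or more had a median of 0.20. The direction of the chaperonins is therefore not read as particular to them. Cct7 had the highest CPM, not scaled by length, at 1099 and 1344. Co-chaperones, which guide HSP70 and HSP90, had 11 of 17 genes higher in replicate 2 and a median of 0.12 (9 of 17 and 0.06 with library totals). Among them Stip1, which links HSP70 to HSP90, had 753 and 849 CPM, and Bag3, an HSF1 target that binds HSP70, had 35.8 and 34.8 CPM.

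The other HSP70 and HSP110 genes did not follow Hspa1b. Of 9 genes tested, 7 were higher in replicate 2, with a median of 0.07 (6 of 9 and 0.0066 with library totals), and Hspa4 had 1093 and 1082 CPM. The testis HSP70 gene Hspa1l, which lies beside Hspa1a, had 0 counts and 1 count. Hspa12b, picked once its values were known, had 3 and 13 counts, a fold of 4.75 (interval 1.31 to 26.01), and was not 2-fold apart with a pseudocount of 2 CPM. The other HSP90 genes, Hsp90b1 of the endoplasmic reticulum and Trap1 of mitochondria, had a median of 0.04, which was -0.02 with library totals.

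J proteins, the family of Dnajb1, split evenly, with 8 of 16 genes higher in each library and a median of 0.04 (-0.02 with library totals). Dnajb3, picked once its values were known, had 21 and 3 counts, or 6.38-fold higher in replicate 1 (interval 1.91 to 33.4), and was not 2-fold apart with a pseudocount of 2 CPM. Dnajb9, chosen in the same way, had 276 and 127 counts and a log2 ratio of -0.95, which reached 2-fold with library totals. The other small heat shock proteins had a median of 0.33 over 5 genes, and Hspb2, likewise picked once its values were known, had 16 and 40 counts, a fold of 2.74. Hspb2 overlaps Cryab on the opposite strand, and without a stated strand setting their reads cannot be told apart.

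Endoplasmic reticulum chaperones and genes of the unfolded protein response gave a median of 0.10 (0.04 with library totals). Of 16 genes, 12 were higher in replicate 2 and 0 were 2-fold apart. Of all genes, 4.13% were at least 2-fold higher in replicate 2 and 4.98% in replicate 1. With library totals 11 of 16 were higher in replicate 2 and 1, Dnajb9, was at least 2-fold higher in replicate 1. At that setting 521 of the 13824 genes were at least 2-fold higher in replicate 2 and 767 in replicate 1. Counts this small are near these backgrounds. Calr, a lectin chaperone, had 1037 and 1261 CPM, while Hsp90b1 had 582 and 588 CPM. The log2 ratios of the list ran from -0.95 for Dnajb9 to 0.79 for Ddit3.

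The list of the other HSF genes and the HSF1-binding protein gene Hsbp1 had 4 genes tested, Hsf2, Hsf4, Hsf5 and Hsbp1. Its median of 1.16 lies between Hsbp1 (log2 ratio 0.49, with 861 and 1101 counts) and Hsf5, and it was 0.29 with a mean of at least 5 CPM, which leaves Hsf2 and Hsbp1, and 0.49 with a minimum of 1 count. Hsbp1, Hsf4 and Hsf5 were chosen after their values were seen. Hsf4 had 8 and 96 counts, a 13.2-fold difference (interval 6.42 to 31.4). Hsf5 had 25 and 98 counts, a 4.30-fold difference (interval 2.75 to 6.97). Hsf2 had 85.3 and 87.3 CPM, a log2 ratio of 0.09, and Hsf3 did not pass 3 counts in either library.

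The remaining HSF1 targets on the list went partly the other way. Values were used for 3 of 7, with a median of -0.53. Zfand2a, an arsenite- and heat-inducible partner of the proteasome, had 3439 counts in replicate 1 and 1406 counts in replicate 2. The fold of replicate 2 over replicate 1 was 0.449 (interval 0.421 to 0.477), a log2 ratio of -1.15. The gene lies on chromosome 5 from 139471211 to 139484549. Jmjd6 had 957 and 1279 counts, a log2 ratio of 0.55, and Ier5 173 and 107 counts, a log2 ratio of -0.53. The HSF1 targets named thus did not share 1 direction, with Hspa1b, Hsph1, Jmjd6 and, by less, Dnajb1 and Hsp90aa1 higher in replicate 2, Zfand2a and Ier5 higher in replicate 1, Bag3 at 0.01, and Hspb1 at -0.34 with an interval that includes no difference.

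Hspa1b has a single exon on the minus strand at chr17:34956436-34959238 of GRCm38. Hspa1a, of the same layout, lies 9951 bases away at chr17:34969190-34972156. Their coding sequences differ at 8 of 1926 aligned positions, an identity of 99.6%, and the longest identical run is 638 bases. A read of 150 bases could therefore come from either gene over much of the coding sequence, and 40.5% of all 150-base windows of the Hspa1b transcript were shared with Hspa1a (54.4% within the coding sequence, 0 after it). In the study's methods reads with more than 1 place were discarded, while the submitters' processing notes name other tools. The level of Hspa1b is therefore uncertain. The stretch printed here, coding bases 1327 to 1416 of each gene in the GENCODE transcripts of GRCm38, is shown because only the 2 bases in capitals separate the genes there (minus strand, chr17:34970510-34970599 for Hspa1a and chr17:34957592-34957681 for Hspa1b).
Hspa1a: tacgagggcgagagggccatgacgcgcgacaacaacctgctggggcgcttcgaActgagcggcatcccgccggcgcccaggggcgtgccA
Hspa1b: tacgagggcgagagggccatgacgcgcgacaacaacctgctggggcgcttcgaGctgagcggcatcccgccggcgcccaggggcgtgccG

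Shared sequence also touched other members. Of the 150-base windows, 36.2% in Hsp90aa1 and 36.6% in Hspb1 were shared with other annotated genes. For Hsp90aa1 this was mainly Gm12346 (30.0%), and for Hspb1 it was Hsp25-ps1 (36.6%) and Gm9817 (36.0%). The level of these members is uncertain to that extent. Hsph1, Dnajb1, Hspa5, Hsf1 and Hsp90ab1 had 0 shared windows of this length.

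The neighbourhood of Hspa1b was looked at after its values had been seen. Within 100000 bases of the gene, 21 other genes are listed, of which 12 reached 10 counts. All 12 were higher in replicate 2, with a median log2 ratio of 0.56, against 16 of 25 genes and a median of 0.06 between 100000 and 500000 bases (13 of 25 and 0.01 with library totals), and 317 of 626 genes and a median of 0.01 (-0.05 with library totals) on the remainder of chromosome 17. With a mean of at least 5 CPM, 9 of 9 genes within 100000 bases were higher in replicate 2, with a median of 0.46. Between 100000 and 500000 bases it was 10 of 14 and 0.12, and on the remainder of the chromosome 233 of 441 and 0.03. With a minimum of 1 count, 14 of 16 genes within 100000 bases were higher in replicate 2, with a median of 0.23. Among the 12, Gm20481 reached 10 counts through replicate 2 alone, so that its direction was set by the minimum. Without it, left out after seeing the data, 11 of 11 were higher in replicate 2, with a median of 0.46. At least 2-fold higher were 3 of these 11, beside 4.13% of all genes, namely Slc44a4 (1.08), Neu1 (1.01) and 1110038B12Rik (1.09), with log2 ratios in parentheses. With library totals the count was 2 of 11, since Neu1 fell under 2-fold, beside 521 of the 13824 genes. With a pseudocount of 2 CPM it was 1 of 11, since Slc44a4 also fell under 2-fold, beside 241 of the 13824 genes. Between 100000 and 500000 bases 2 of 25 genes were at least 2-fold higher in replicate 2. It was 1 of 25 with library totals and 2 of 25 with a pseudocount of 2 CPM, beside the same shares of all genes.

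1110038B12Rik, a noncoding transcript, lies on the same strand as Hspa1b, 3964 bases past its 3′ end. It had 454 and 888 counts, a 2.15-fold difference (interval 1.91 to 2.41). Gm20481 lies wholly inside Hspa1a on the opposite strand, at chr17:34969912-34972136. Its counts were 0 in replicate 1 and 71 in replicate 2. Set against 3 counts in replicate 1 the fold would be 25.97, a value without an interval and not a lower bound. Since the strand setting of the counting is not stated, reads of Gm20481 and of Hspa1a cannot be told apart. Its transcripts also share 3.62% of the 150-base windows of Hspa1b, so its count may hold reads of Hspa1b. Farther off, Ehmt2 had 384 and 508 CPM (log2 ratio 0.46) and Lsm2 1249 and 1359 counts (0.25).

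**Figure D3:**
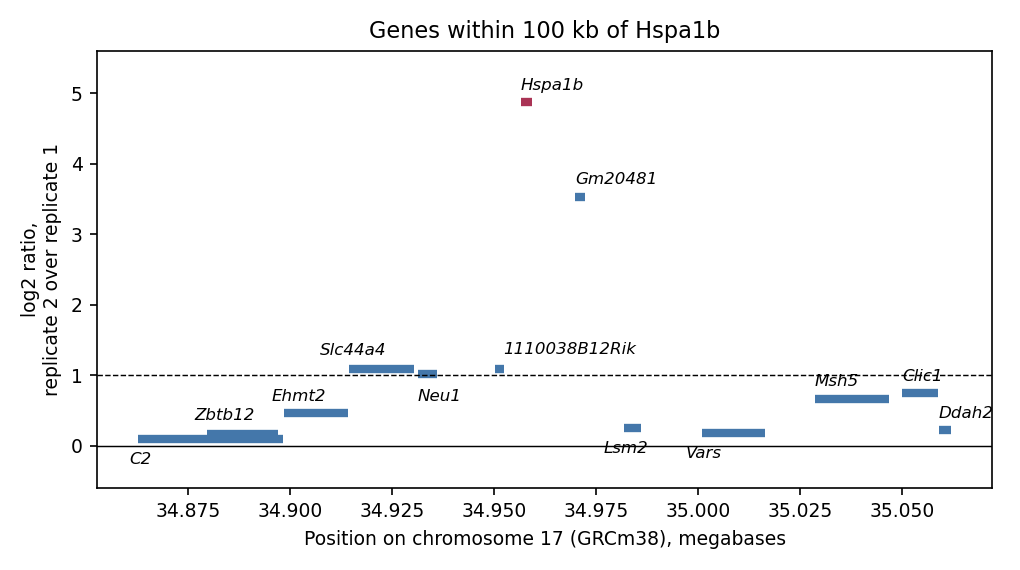
Log2 ratio of replicate 2 over replicate 1 (vertical axis) for Hspa1b (red) and the 12 genes within 100000 bases that reached 10 counts (blue), each drawn from its start to its end on chromosome 17 of GRCm38 in megabases, with a dashed line at 2-fold. Hspa1b (4.87) and Gm20481, drawn with the pseudocount, stand highest, and all 12 neighbours lie above 0.

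Other measures moved between the same libraries as Hspa1b. The feeder genes had a median log2 ratio of -0.71 (-1.09 to -0.50 over the alternatives), with 14 of 16 genes higher in replicate 1. Of these, 7 were at least 2-fold higher, beside 4.98% of all genes. The pluripotency genes had a median of -0.28, with 7 of 10 higher in replicate 1, and the neuron genes a median of -0.19 (-0.49 to -0.16 over the alternatives), with 5 of 7 higher in replicate 1. The share of counts on the 13 mitochondrially encoded genes was 0.180% in replicate 1 and 0.0960% in replicate 2. In bulk RNA, fewer cells of a kind and less RNA per cell cannot be told apart, and the part of these differences, or of the batch, in the Hspa1b difference was not tested.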

How the data were processed

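Poly-A RNA of the 2 CAST libraries was sequenced as paired-end reads. The authors deposited counts per gene without normalization. How the reads were counted is given in conflicting ways. The submitters' processing notes name TopHat2 2.1.1, SAMtools, HTSeq and GRCm38 (mm10), and the study's methods name STAR on the strain's own genome with multi-mapping reads discarded. The strand setting is not given in the sources used here, and the labels and the methods name different RNA kits. A further 7 columns of the count table, named for samples outside the list of samples held here, were left out of every step.

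Symbols were matched through GENCODE M21 (26807 of 26808 identifiers). CPM used library totals, and ratios used TMM factors (1.021 and 0.980) from edgeR 4.0.16 (R 4.3.3), with 0.5 CPM added and a minimum of 10 counts summed over both libraries. The ratios were recomputed with library totals, with DESeq2 1.42.0 size factors, with pseudocounts of 0.1 and 2 CPM and with a minimum of 1 count or a mean of 5 CPM, and the share of counts with each library left out and with totals without mitochondrially encoded genes. Intervals came from scipy 1.17.1, plots from matplotlib 3.10.9 and tables from pandas 2.3.3 with numpy 2.4.6 under Python 3.11.15. The ratio calculation was tested on simulated data.

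The members and lists were chosen with earlier results of these data known. The genes named are all members, genes of the wider list that were at least 2-fold apart with a mean of at least 5 CPM (up to 6 a list) and the 6 with the largest ratios in each direction among all genes with that mean. Others were chosen as examples of their lists or after their values were seen.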

Additional observations from a re-analysis of the deposited data

How the results depend on the processing

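No paired analysis was possible because only 1 group had counts that were used. The ratios of the 8 members and the medians of the inducible, constitutive and wider lists kept their sign under the scalings, pseudocounts and minimums tried. The other medians were put through the same alternatives after seeing the data, and of 18 lists and gene groups 14 kept the sign. With library totals J proteins, the other HSP90 genes and the remainder of chromosome 17 turned to -0.02, -0.02 and -0.05. The median of all genes was 0.0001 with DESeq2 size factors and 0.0035 with a mean of at least 5 CPM. With library totals the inducible median was 0.163 and the constitutive median 0.0803, and the median of all genes was -0.06. With a mean of at least 5 CPM, which removes Hspb1, the inducible median was 0.39. Without Hspa1b, chosen after seeing the data, 0 members were at least 2-fold higher in replicate 2. The number of all genes at least 2-fold higher in replicate 2 was 571, and it was 855 with a pseudocount of 0.1 CPM, 241 with 2 CPM and 226 with a mean of at least 5 CPM. In favour of replicate 1 it was 688, 956, 300 and 316. These alternatives differ in how they weigh low genes. The log2 ratio of Hspa1b ranged from 4.63 to 4.94. The share of counts on the members was 1.45% to 1.62% with each library left out in turn. The mean level of Hspa1b, 116 CPM, was 224 without replicate 1 and 7.47 without replicate 2. Summing Hspa1a and Hspa1b as 1 gene was not run, since Hspa1a had no row of counts. Depth limits the low genes, Hspb1, Hsf4 and Hsf5, and the batch entry of each library cannot be told apart from its replicate.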

Other observations

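Other genes with large ratios among those with a mean of at least 5 CPM are given as values. Several, such as Aoc3, Egr2 and Filip1l, reached that mean through the library in which they were high, so their ratios are partly set by the minimum and the pseudocount. Next to Hspa1b in favour of replicate 2 came Aoc3 (log2 ratio 3.15), Eno2 (2.76), Gchfr (2.75), Nags (2.73) and Bhlha15 (2.69). Eno2, the neuronal enolase of glycolysis, had 376 counts in replicate 1 and 2364 in replicate 2. The 6 largest ratios in favour of replicate 1 were, in order, Fosb (-7.08), Egr1 (-6.11), Acta2 (-4.35), Egr2 (-4.21), Thbs1 (-3.74) and Filip1l (-3.71). Fosb, Egr1 and Egr2 encode transcription factors of the immediate early response. Fosb had 1434 counts in replicate 1 and 3 in replicate 2, and Thbs1, a secreted matrix protein, had 6754 and 456.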
